A study of Mus musculus with 14 samples.

Results

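The genes described here encode subunits of potassium, sodium and chloride channels, chosen by name: protein-coding genes whose symbol starts with Kcn or Clcn, the Hcn genes, and the Scn genes of the voltage-gated sodium channel family. They number 121 of the 49671 genes in the deposited table. RNA was sequenced from C2C12, an immortalized mouse myoblast line that forms muscle fibres in culture, in a study of media that favour myogenic differentiation. Cells in medium DM3 received 2% horse serum together with an adipogenic cocktail of 1 µg/ml insulin, 0.5 mM IBMX (a phosphodiesterase inhibitor), 0.5 µM dexamethasone (a glucocorticoid) and 2 µM rosiglitazone (a PPAR-gamma agonist). DM2 paired the same cocktail with 10% fetal calf serum, and DM1 held 2% horse serum without the cocktail. Day 0 cells were sampled from proliferation medium with 20% fetal calf serum. DM1, DM2 and DM3 cultures were sampled at day 2 and at day 7, which with day 0 makes 7 groups of 2 libraries. The 14 libraries come from a single cell line, and nothing in the labels says that the libraries of a group are separate cultures, so p-values measure the spread between libraries, which may be technical.

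Ion channels set the electrical behaviour of a muscle cell. Potassium channels pull the membrane potential to negative values and end action potentials, voltage-gated sodium channels start action potentials, and chloride channels steady the membrane of mature fibres or, inside the cell, serve the acidification of endosomes and lysosomes. Many of these genes are known to change as myoblasts stop dividing and fuse into fibres that can fire and contract.

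The promoters of 5 genes on which the results below turn are shown: Scn4a, Kcnn3, Scn7a and Kcnj15 were higher than at day 0 in at least 1 medium, and Kcnn4 was lower in all. Each window runs from 250 bases before to 50 bases after the gene's start as RefSeq gives it for build GRCm38.p6, read 5′ to 3′ on the gene's strand. It is set in lower case, with capitals for CAGCTG, the E-box form bound by myogenic factors.
Scn4a, chr11:106349341-106349640, minus strand: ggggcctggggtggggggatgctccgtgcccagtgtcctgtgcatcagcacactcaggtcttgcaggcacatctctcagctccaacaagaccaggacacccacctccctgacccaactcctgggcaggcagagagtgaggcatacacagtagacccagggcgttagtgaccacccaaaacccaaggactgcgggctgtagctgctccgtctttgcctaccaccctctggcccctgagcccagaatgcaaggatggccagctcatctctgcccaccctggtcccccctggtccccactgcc
Kcnn3, chr3:89519914-89520213, plus strand: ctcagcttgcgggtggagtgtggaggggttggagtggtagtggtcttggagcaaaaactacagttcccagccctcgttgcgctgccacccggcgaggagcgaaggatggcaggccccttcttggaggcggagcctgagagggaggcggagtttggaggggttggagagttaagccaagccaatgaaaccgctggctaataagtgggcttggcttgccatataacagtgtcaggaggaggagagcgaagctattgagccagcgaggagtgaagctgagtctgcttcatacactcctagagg
Scn7a, chr2:66784861-66785160, minus strand: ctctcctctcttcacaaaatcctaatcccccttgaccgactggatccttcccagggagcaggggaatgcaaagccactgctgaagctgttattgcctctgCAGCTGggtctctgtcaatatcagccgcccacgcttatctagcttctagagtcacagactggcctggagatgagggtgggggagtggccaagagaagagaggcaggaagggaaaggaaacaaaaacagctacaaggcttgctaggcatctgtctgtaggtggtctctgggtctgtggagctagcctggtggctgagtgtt
Kcnj15, chr16:95257308-95257607, plus strand: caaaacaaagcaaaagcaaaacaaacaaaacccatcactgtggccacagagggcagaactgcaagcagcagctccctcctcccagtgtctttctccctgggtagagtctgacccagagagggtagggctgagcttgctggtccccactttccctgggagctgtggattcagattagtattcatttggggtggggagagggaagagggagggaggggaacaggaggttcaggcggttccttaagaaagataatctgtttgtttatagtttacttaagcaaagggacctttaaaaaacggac
Kcnn4, chr7:24370013-24370312, plus strand: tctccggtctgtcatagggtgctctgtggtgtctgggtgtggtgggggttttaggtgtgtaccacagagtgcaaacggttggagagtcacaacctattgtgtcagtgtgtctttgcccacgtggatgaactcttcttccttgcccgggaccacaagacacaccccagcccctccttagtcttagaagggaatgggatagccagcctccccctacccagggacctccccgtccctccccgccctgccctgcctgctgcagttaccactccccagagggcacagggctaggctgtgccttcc
Windows were at hand for 88 of the 121 genes, 119 in all. CAGCTG, which reads the same on both strands, occurs in 1 of the 5 windows shown, that of Scn7a, at 150 bases before the start. The Scn4a window lies inside the gene's Gencode span, given below, so the stretch before its Gencode start was not searched. It is in 27 of the 119 windows of channel genes (22.7%), beside 16.3% of the 32851 windows of all genes. The general E-box CANNTG, which includes CAGCTG, is in 74.8% of channel windows and 72.3% of all. A MEF2 site, searched on both strands, is in 3.36% and 3.19%. The full glucocorticoid response element (AGAACA, 3 bases of any kind, then TGTTCT) is in 0 channel windows and 0.00913% of all, and its part AGAACA, on either strand, in 19.3% and 19.0%. The cAMP response element TGACGTCA, which contains TGACG, is in 1.68% and 1.79%, and TGACG on either strand in 21.0% and 20.8%. A match describes the letters and is not a binding site.

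Library sums lay between 21907617 and 29784885 expected counts, the read estimates that RSEM gives per gene. Levels below are CPM, each count as a share of its library size after TMM scaling (a correction for library composition), and 3 counts, the floor used here, correspond to 0.102 to 0.132 CPM. A gene was called at an adjusted p under 0.05 (edgeR, quasi-likelihood F test, Benjamini-Hochberg over 15973 genes). Processed pseudogenes took a smaller share of the counts in 1 library each of day 0 (1.28%), DM1 at day 2 (1.29%) and DM3 at day 2 (0.584%) than in the other 11 libraries (2.14 to 3.86%), so counts of called genes are given with and without these 3. The share of all tested genes called in fits with libraries left out is not given. Counts from those fits therefore do not show whether channel genes lose calls more often than other genes. Summed levels of 7 muscle markers (Myod1, Myf5, Des, Myog, Myh3, Ckm and Acta1, none at 0 in any group) lay between 19268 and 20195 CPM in DM3, between 946 and 1020 CPM in DM2 and between 1905 and 2107 CPM in DM1 at day 7, against 972 to 1129 CPM at day 0. Outside DM3 Des was the largest member of this sum, and in DM2 the members differed from day 0 in both directions: Acta1 averaged 245 CPM in DM2 at day 7 and 3.52 CPM at day 0, Myh3 80.6 and 0.5695 CPM, Myog 32.1 and 1.81 CPM and Ckm 11.8 and 0.0174 CPM, while Des averaged 469 and 863 CPM and Myod1 18.3 and 137 CPM. Fewer cells of a kind and less RNA per cell cannot be told apart in these bulk samples.

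Most channel genes were at or near 0 in these cells. Of the 121 genes, 22 had no count in any library, 51 had counts but too few to test (1 to 57 summed over the 14 libraries), and 48 passed the low-count filter. The genes at 0 include Kcnj11, the pore of the ATP-sensitive potassium channel of skeletal muscle and pancreatic beta cells, and Kcna5 and Kcnd3, voltage-gated potassium channels known from the heart. The share that passed was 8 of 9 ClC chloride genes, 6 of 8 calcium- or sodium-activated potassium channel genes, 5 of 10 sodium channel alpha subunit genes and 1 of 4 sodium channel beta subunit genes. It was 11 of 40 voltage-gated potassium channel genes, 6 of 17 potassium channel accessory genes, 5 of 15 inward rectifier genes, 4 of 14 tandem-pore genes and 2 of 4 Hcn genes. The highest total below the filter was that of Hcn3, a pacemaker channel gene, with 57 counts. A gene that passed only through the group where it is high had to differ between groups, so counts over the 48 describe those genes alone. Exons of Kcnj3, Kcnk2, Kcna6, Kcnmb4, Kcnj15, Kcnma1, Kcnab3, Clcn1 and Clcn4, among others, overlap a gene on the opposite strand. The strand setting of the counting is not given in the sources used here, so reads of these pairs may be shared and the levels of these genes are uncertain.

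Per kilobase of exon, ClC genes of internal membranes had 3 of the 4 highest levels. Averaged over all libraries, Clcn5, an endosomal chloride/proton exchanger, reached 47.5 CPM per kilobase. Clcn7, the exchanger of lysosomes, had 8.99 CPM per kilobase and Clcn4, another endosomal exchanger, 7.96 CPM per kilobase. The highest potassium channel gene in this average was Kcnn3, of a small-conductance calcium-activated channel, at 6.77 CPM per kilobase. The order differed between groups. Kcnn3 reached 28.7 CPM per kilobase in DM3 at day 7, second to Clcn5, against 1.07 CPM per kilobase at day 0. The second gene at day 0 was Kcnn4, at 9.63 CPM per kilobase.

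Channel genes were called in both directions, as were tested genes in general. At day 7 in DM3, 35 of the 48 tested genes (72.9%) were called against day 0, where 59.0% of all tested genes were. Of the 48, 21 (43.8%) were higher and 14 (29.2%) lower, beside 28.9% and 30.1% of all genes. In DM2 at day 7 the count was 31 (64.6%, all genes 55.4%). There 17 were higher and 14 lower (35.4% and 29.2%, all genes 24.5% and 30.9%). In DM1 at day 7 it was 32 (66.7%, all genes 53.5%). There 23 were higher and 9 lower (47.9% and 18.8%, all genes 27.7% and 25.8%). With the 3 libraries of low pseudogene share left out, these counts were 34, 28 and 31. The 3 comparisons share the day 0 libraries.

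At day 2, 20 genes were called in DM3 against day 0 (41.7%, all genes 50.9%). Of these 15 were higher and 5 lower (31.25% and 10.4%, all genes 25.5% and 25.4%). DM2 had 24 (50.0%, all genes 49.7%), 16 higher and 8 lower (33.3% and 16.7%, all genes 23.5% and 26.2%). DM1 had 18 (37.5%, all genes 29.7%), 16 higher and 2 lower (33.3% and 4.17%, all genes 15.2% and 14.6%). Without the 3 libraries the counts were 16, 23 and 12. The DM1 count was 9 without DM1 replicate 1 and 10 without day 0 replicate 2.

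Between the days, 22 genes were called in DM3 (45.8%, all genes 47.9%). Of these, 10 were higher and 12 lower at day 7 (20.8% and 25.0%, all genes 22.6% and 25.3%). DM2 had 27 (56.25%, all genes 54.8%), 14 higher and 13 lower (29.2% and 27.1%, all genes 25.4% and 29.4%). DM1 had 22 (45.8%, all genes 34.3%), 15 higher and 7 lower (31.25% and 14.6%, all genes 16.8% and 17.5%). The median log2 change of the 48 genes was -0.42 in DM3, -0.05 in DM2 and 0.12 in DM1, beside 0.02, -0.01 and 0.04 over all tested genes. With the same 3 libraries left out, the counts were 21 in DM3 and 18 in DM1.

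Of the 48 genes, 4 were called in the same direction in all 6 comparisons with day 0, which share the day 0 libraries. That is 8.33% of the 48, beside 10.4% of all tested genes. Clcn5, Kcnn3 and Scn4a were higher in each, and Kcnn4 was lower in each. A further 10 (20.8%, all genes 17.3%) were called higher in at least 1 of these comparisons and lower in at least 1 other, among them Clcn6, Kcna6, Kcnc2, Kcnd1, Kcnf1, Kcnh2, Kcnh7 and Scn7a. Clcn1, Clcn2, Kcnh3 and Scn2a were called in none (8.33%, all genes 16.4%).

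**Figure D1:**
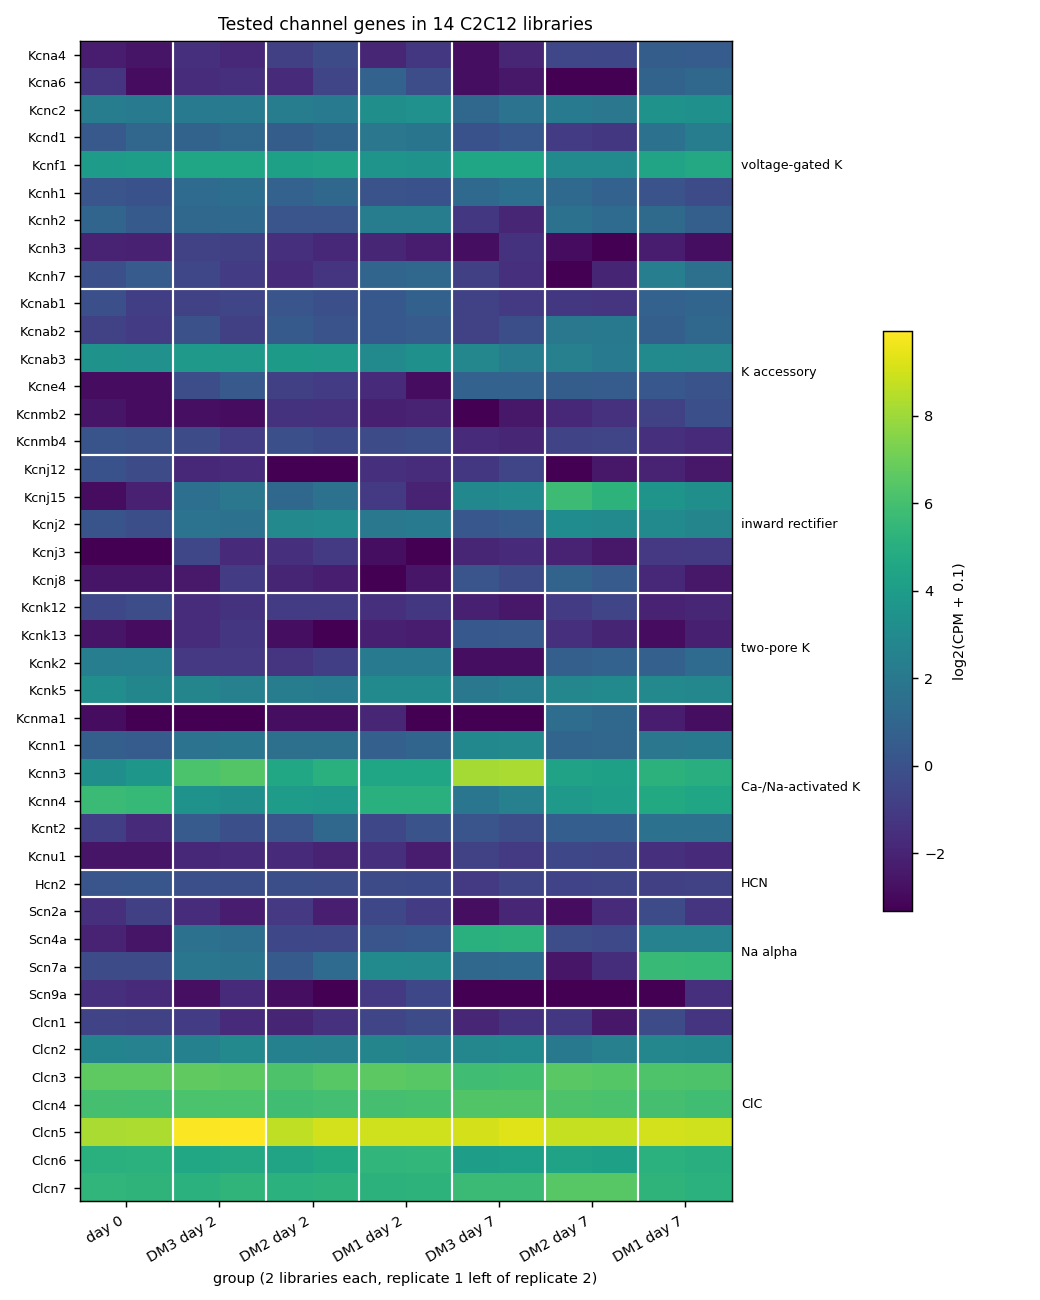
Each row is a tested channel gene (42 of the 48 are shown), grouped by family, and each column 1 of the 14 libraries, with replicate 1 left of replicate 2 in each group; colour gives the level as log2(CPM + 0.1). Kcnn3 and Scn4a are brightest in DM3 at day 7, Kcnj15 in DM2 at day 7 and Scn7a in DM1 at day 7, and Clcn5 is bright in all libraries.

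**Figure D2:**
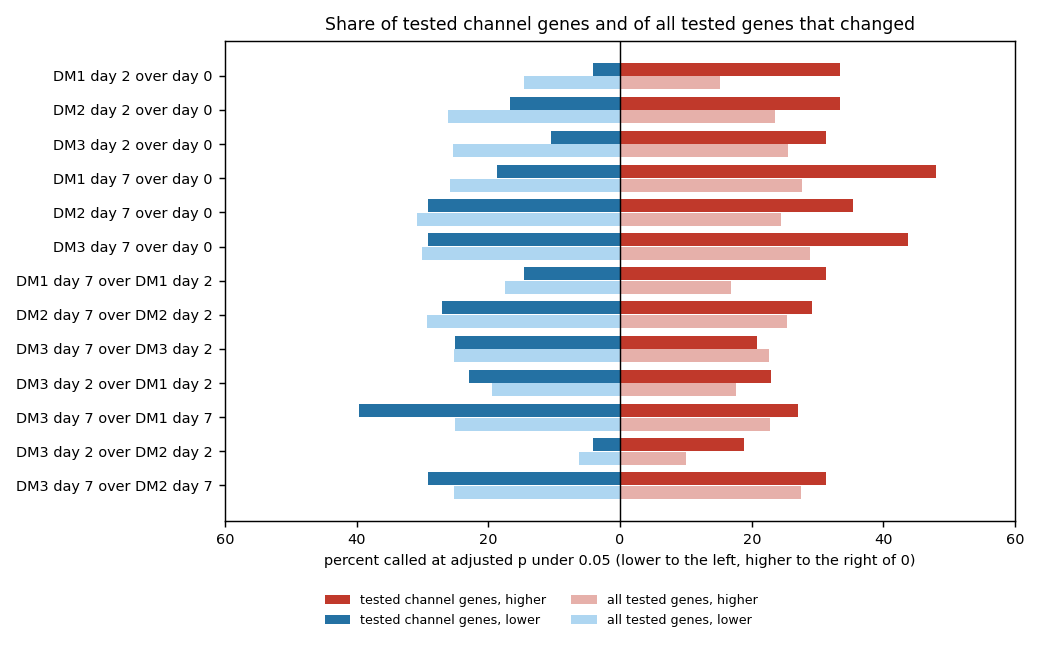
Horizontal bars give, for 13 comparisons, the percentage of the 48 tested channel genes (dark) and of all 15973 tested genes (pale) called higher (right of 0) or lower (left of 0) at an adjusted p under 0.05. In DM3 at day 7 over day 0, 21 channel genes were higher and 14 lower (43.8% and 29.2%), beside 28.9% and 30.1% of all genes.

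Of the sodium channel genes, Scn4a, the adult skeletal muscle gene, was highest in DM3 at day 7, and Scn7a in DM1 at day 7. In build GRCm38 Scn4a lies at chr11:106318592-106353288 and Scn7a at chr2:66673425-66784914, both on the minus strand. Scn7a belongs to a cluster on chromosome 2 with Scn9a, Scn1a, Scn2a and Scn3a, of which Scn1a and Scn3a had 8 counts and 1 count in all.

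Scn4a encodes the pore of the channel that carries the action potential of adult fibres. It was at 0.1396 and 0.0681 CPM at day 0, and in DM3 at 2.99 and 2.69 CPM at day 2 and 33.8 and 36.5 CPM at day 7. DM2 libraries had 0.641 and 0.611 CPM at day 2 and 0.7904 and 0.661 CPM at day 7, and DM1 libraries 1.05 and 1.16 CPM at day 2 and 5.84 and 5.801 CPM at day 7. Every later library was above both of day 0, and DM3 was above the other media at each day. At day 7 the fold over day 0 was 324 in DM3 (log2 8.34 ± 0.24 SE), 6.75 in DM2 (log2 2.76 ± 0.27) and 53.8 in DM1 (log2 5.75 ± 0.23), with adjusted p = 6.2e-11, 2.8e-06 and 2.3e-09 (edgeR). DM3 was 48.04-fold above DM2 and 6.03-fold above DM1 (edgeR, adjusted p = 6.2e-10 and 1.2e-07). The summed muscle markers were highest in the same group, and their part in the level of Scn4a was not tested.

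Scn7a encodes Nax, a relative of the voltage-gated sodium channels known as a sensor of extracellular sodium in the brain. It was at 0.733 and 0.7495 CPM at day 0, while DM1 libraries held 7.81 and 7.35 CPM at day 2 and 49.1 and 47.8 CPM at day 7. DM3 held 3.66 and 3.37 CPM at day 2 and 2.07 and 2.22 CPM at day 7, and DM2 1.24 and 2.37 CPM at day 2 and 0.0753 and 0.233 CPM at day 7. DM1 at day 7 stood above all other libraries, and DM2 at day 7 below both of day 0. Over day 0, the log2 change at day 7 was 1.53 ± 0.29 SE in DM3, -2.24 ± 0.42 in DM2 and 6.02 ± 0.30 in DM1, the last a 64.95-fold difference (edgeR, adjusted p = 0.00067, 0.00066 and 1.5e-08). The fall in DM2 was 4.72-fold, or 3.13-fold without DM2 replicate 1 and 9.31-fold without replicate 2. At day 7 DM3 was 22.5-fold below DM1 (log2 -4.49 ± 0.27, edgeR, adjusted p = 1.3e-07). Scn7a is also known from Schwann cells: their marker Sox10 was at 0 in all 14 libraries, and 4 such markers summed to 0.423 to 0.616 CPM in DM3, 0.623 to 0.677 CPM in DM2 and 2.03 to 2.42 CPM in DM1 at day 7, against 2.90 to 3.63 CPM at day 0. At day 7 this sum was higher in DM1 than in the other media, as Scn7a was. At day 0 and in DM2 at day 2 (2.56 to 3.55 CPM) the sum was above that of DM1 at day 7, while Scn7a was lower. The part of these markers in the level of Scn7a was not tested.

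Scn9a, known from pain-sensing neurons, had no count in DM3 or DM2 at day 7 and 0.244 and 0.204 CPM at day 0. It was at least 1.77-fold lower in DM3 and at least 1.92-fold lower in DM2, against a floor of 3 counts per library. Both calls were lost without any 1 of the 4 libraries compared, with adjusted p between 0.081 and 0.13 in DM3 and between 0.08 and 0.13 in DM2 (edgeR). Scn2a, a neuronal gene, stayed between 0.0376 and 0.713 CPM.

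**Figure D3:**
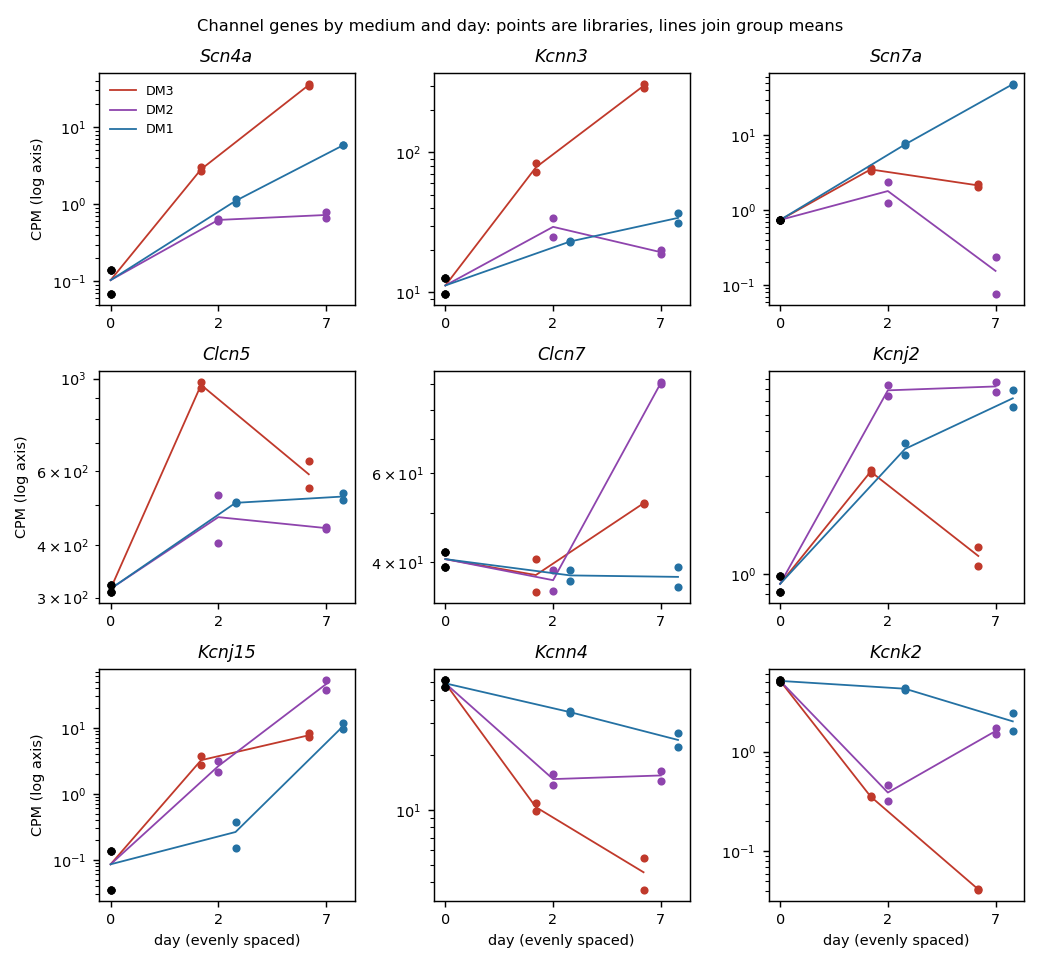
CPM on log axes against day (evenly spaced) for 9 channel genes; points are single libraries, lines join group means, and colours mark the media, with day 0 (black) shared by all. Scn4a and Kcnn3 end highest in DM3, Scn7a in DM1 and Kcnj15 and Clcn7 in DM2, Clcn5 peaks in DM3 at day 2, and Kcnn4, Kcnk2 and Kcnj2 end lowest in DM3.

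Of the calcium-activated potassium channel genes, Kcnn3 was higher and Kcnn4 lower than at day 0 in every later group. Kcnn3, whose small-conductance channel is known from immature and denervated fibres, was at 9.66 and 12.7 CPM at day 0, and in DM3 at 72.5 and 83.9 CPM at day 2 and 289 and 310.4 CPM at day 7. DM2 held 24.6 and 34.05 CPM at day 2 and 19.9 and 18.8 CPM at day 7, and DM1 23.3 and 22.8 CPM at day 2 and 36.6 and 31.4 CPM at day 7. DM3 was above the other media at each day, and no later library overlapped day 0. At day 7 Kcnn3 in DM3 was 26.8-fold above day 0 (log2 4.75 ± 0.18 SE), 15.5-fold above DM2 and 8.81-fold above DM1 (edgeR, adjusted p = 1.1e-09, 6.4e-09 and 5.8e-08).

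Kcnn4, the intermediate-conductance channel of many dividing cells, was at 51.7 and 46.8 CPM at day 0, and in DM3 at 10.9 and 9.81 CPM at day 2 and 3.64 and 5.46 CPM at day 7. DM2 held 15.7 and 13.7 CPM at day 2 and 14.5 and 16.4 CPM at day 7, and DM1 34.7 and 33.8 CPM at day 2 and 26.3 and 21.95 CPM at day 7. At day 7 the media followed each other without overlap, with DM3 lowest and DM1 highest. The DM3 level was 10.8-fold below day 0 (log2 -3.43 ± 0.17), 3.38-fold below DM2 and 5.297-fold below DM1 (edgeR, adjusted p = 6.7e-09, 2.8e-06 and 3.7e-07).

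Kcnn1, a further small-conductance channel gene, was at 7.27 and 7.51 CPM in DM3, 1.88 and 1.98 CPM in DM2 and 3.78 and 4.01 CPM in DM1 at day 7, against 1.5 and 1.36 CPM at day 0. Kcnma1, the large-conductance calcium- and voltage-activated channel, was at 2.597 and 2.14 CPM in DM2 at day 7 and at 0.168 CPM or less in every library of the other groups, with no count in the 4 DM3 libraries. Day 0 held 1 count of Kcnma1, and the ratio of DM2 at day 7 to it was 138, with a 95% counting interval of 24.2 to 5479. The fitted fold was 107, or 488 without day 0 replicate 1 and 59.7 without day 0 replicate 2. At day 7 DM3 was at least 18.7-fold below DM2 (edgeR, adjusted p = 0.00024). Kcnt2, a sodium-activated channel gene, was at 3.03 and 3.09 CPM in DM1 at day 7 and 0.454 and 0.204 CPM at day 0. The groups did not overlap, and the difference was 9.19-fold, or 14.6-fold without day 0 replicate 1 (edgeR, adjusted p = 7.5e-05 with both).

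Inward rectifiers hold the resting potential. Kcnj15, Kcnj2 and Kcnj8 had their highest group mean in DM2 at day 7, for Kcnj2 with libraries that overlapped those of DM2 at day 2 and DM1 at day 7. Kcnj15, known from kidney and other epithelia, was at 0.0349 and 0.136 CPM at day 0, and in DM2 at 2.16 and 3.09 CPM at day 2 and 53.8 and 37.8 CPM at day 7. DM3 held 2.77 and 3.69 CPM at day 2 and 7.19 and 8.21 CPM at day 7, and DM1 0.378 and 0.15 CPM at day 2 and 11.7 and 9.56 CPM at day 7. Every later library was above both of day 0, and at day 2 both cocktail media were above DM1. At day 7 the fold over day 0 was 84.7 in DM3, 503 in DM2 and 117 in DM1 (edgeR, adjusted p = 5.2e-07, 5.5e-08 and 4.6e-07). Without day 0 replicate 2 these folds were 194, 1151 and 267, and without day 0 replicate 1 they were 54.6, 324 and 75.3. DM3 was 5.94-fold below DM2 (log2 -2.57 ± 0.29, edgeR, adjusted p = 2.7e-05), and its difference from DM1 was log2 -0.46 ± 0.28 (edgeR, adjusted p = 0.21).

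Kcnj2 encodes a strong inward rectifier whose channel hyperpolarizes human myoblasts before they fuse. It was at 0.977 and 0.818 CPM at day 0, and in DM3 at 3.21 and 3.11 CPM at day 2 and 1.099 and 1.36 CPM at day 7. DM2 held 7.37 and 8.398 CPM at day 2 and 8.69 and 7.78 CPM at day 7, and DM1 3.82 and 4.35 CPM at day 2 and 7.91 and 6.51 CPM at day 7. At day 7 DM3 lay just above day 0, and both other media lay far above it. DM3 was 6.69-fold below DM2 and 5.86-fold below DM1 (edgeR, adjusted p = 1.8e-07 and 5.7e-07), and DM2 and DM1 were 9.14-fold and 8.01-fold above day 0 (edgeR, adjusted p = 5.5e-08 and 9.9e-08). Kcnj12, a close relative, had no count in either DM2 library at day 2, against 0.907 and 0.715 CPM at day 0, and was at least 6.75-fold lower there.

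Kcnj8, the pore of the ATP-sensitive channel of vascular muscle, was at 1.01 and 0.739 CPM in DM3, 1.77 and 1.32 CPM in DM2 and 0.178 and 0.0835 CPM in DM1 at day 7, against 0.0698 and 0.0681 CPM at day 0. Both cocktail media were above DM1 and day 0 with no overlap. The log2 change over day 0 was 3.58 ± 0.77 in DM3 and 4.39 ± 0.75 in DM2 (edgeR, adjusted p = 0.0015 and 0.00032). Abcc9, whose product pairs with this pore, averaged 0.563 ± 0.0999 CPM in DM3, 0.534 ± 0.1498 CPM in DM2 and 0.0417 ± 0.05902 CPM in DM1 at day 7, against 0.01703 ± 0.0241 CPM at day 0 (SD, n = 2 each).

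In the tandem-pore family, which carries background potassium current, Kcnk2 had the largest fall in DM3 at day 7. Its channel opens on membrane stretch. It was at 4.95 and 5.28 CPM at day 0, and in DM3 at 0.352 and 0.358 CPM at day 2 and 0.0423 and 0.0411 CPM at day 7. DM2 held 0.321 and 0.458 CPM at day 2 and 1.51 and 1.71 CPM at day 7, and DM1 4.16 and 4.39 CPM at day 2 and 1.603 and 2.42 CPM at day 7. At day 2 both cocktail media were far below DM1, and at day 7 each DM3 library held 1 count. At day 2 DM3 was 11.9-fold below DM1 (log2 -3.57 ± 0.29, edgeR, adjusted p = 2.5e-06). At day 7 DM3 was lower than day 0 by a ratio of 123, with a 95% counting interval of 33.7 to 1019.

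Kcnk13, of the halothane-inhibited kind, was at 1.14 and 1.19 CPM in DM3, 0.263 and 0.156 CPM in DM2 and 0.0356 and 0.125 CPM in DM1 at day 7, against 0.0698 and 0.0341 CPM at day 0. DM3 lay above all of these, with a ratio to day 0 of 22.6 and a 95% counting interval of 7.33 to 113. Kcnk5, an acid-sensitive channel gene, was at 3.93 and 4.76 CPM in DM3 at day 7 against 9.11 and 6.81 CPM at day 0, a log2 change of -0.87 ± 0.17 (edgeR, adjusted p = 0.00076).

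Of the voltage-gated potassium channel genes, Kcnc2, Kcnd1 and Kcnh7 were highest in DM1. At day 7 Kcnc2, of a fast delayed rectifier, was at 2.07 and 3.24 CPM in DM3, 4.103 and 3.77 CPM in DM2 and 11.2 and 10.1 CPM in DM1, against 4.61 and 4.53 CPM at day 0. Kcnd1, of an A-type channel, was at 0.93 and 1.15 CPM in DM3, 0.414 and 0.3502 CPM in DM2 and 3.14 and 4.8 CPM in DM1, against 1.22 and 1.98 CPM at day 0. Kcnh7, of the erg family, was at 0.465 and 0.246 CPM in DM3, 0 and 0.156 CPM in DM2 and 4.99 and 2.92 CPM in DM1, against 0.837 and 1.29 CPM at day 0. For all 3 genes DM1 at day 7 lay above the other media of day 7 and above day 0. The log2 difference of DM3 from DM1 was -2.00 ± 0.19 for Kcnc2, -1.92 ± 0.31 for Kcnd1 and -3.46 ± 0.60 for Kcnh7 (edgeR, adjusted p = 4.3e-06, 0.0003 and 0.00045). At day 2 DM1 held 9.53 and 10.4 CPM of Kcnc2, 3.74 and 3.45 CPM of Kcnd1 and 1.89 and 2.14 CPM of Kcnh7. The libraries of the 2 days overlapped for Kcnc2 and Kcnd1, and the log2 change of day 7 over day 2 did not pass the test, at 0.09 ± 0.18 for Kcnc2, 0.14 ± 0.29 for Kcnd1 and 0.97 ± 0.51 for Kcnh7 (edgeR, adjusted p = 0.74, 0.76 and 0.17).

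Kcnh2, the erg gene of cardiac repolarization, was at 0.338 and 0.164 CPM in DM3 at day 7, against 2.94 and 2.37 CPM in DM2, 2.28 and 1.503 CPM in DM1 and 1.92 and 1.26 CPM at day 0. DM3 lay below the rest with no overlap. It was 10.4-fold below DM2 and 7.45-fold below DM1 (edgeR, adjusted p = 9.7e-06 and 5.2e-05), or 15.7-fold and 11.2-fold without DM3 replicate 1. Kcnf1, a subunit that forms no channel of its own and modifies others, was at 22.6 and 22.01 CPM in DM3, 7.68 and 7.898 CPM in DM2 and 21.2 and 25.9 CPM in DM1 at day 7, against 15.4 and 16.97 CPM at day 0. At day 7 both horse serum media lay above day 0, and DM2 below it. At day 2 Kcnf1 was called lower than day 0 in DM1 and higher in DM3, and was not called in DM2. Kcnh1, an ether-a-go-go channel known from human myoblasts before fusion, averaged 2.52 ± 0.3903 CPM in DM3, 1.97 ± 0.3597 CPM in DM2 and 0.857 ± 0.149 CPM in DM1 at day 7, against 0.983 ± 0.0897 CPM at day 0 (SD, n = 2 each).

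Accessory subunit genes changed in both directions. Kcnab2, a cytoplasmic beta subunit of Shaker-type channels, was at 0.507 and 0.821 CPM in DM3, 3.801 and 4.05 CPM in DM2 and 1.53 and 2.13 CPM in DM1 at day 7, against 0.488 and 0.409 CPM at day 0. DM2 was above the rest, 8.67-fold over day 0 (log2 3.12 ± 0.37, edgeR, adjusted p = 1.7e-05). Kcnab3, another beta subunit gene, was at 6.98 and 4.89 CPM in DM3, 5.31 and 4.47 CPM in DM2 and 7.87 and 7.51 CPM in DM1 at day 7, all below the 11.1 and 10.5 CPM of day 0. Kcne4, an inhibitory single-pass subunit, was at 1.73 and 1.68 CPM in DM3, 1.43 and 1.36 CPM in DM2 and 1.105 and 0.9599 CPM in DM1 at day 7, against 0.0349 and 0.0341 CPM, 1 count per library, at day 0.

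The Hcn genes, whose channels carry the pacemaker current, were low. Hcn2 was at 0.3805 and 0.575 CPM in DM3 and 0.527 and 0.584 CPM in DM2 at day 7, against 1.05 and 1.09 CPM at day 0. It was called lower than day 0 in DM3, DM2 and DM1 at day 7. Per kilobase of exon, Hcn2 averaged 0.150 CPM in DM3, 0.174 CPM in DM2 and 0.151 CPM in DM1, against 0.334 CPM at day 0. Its log2 change in DM3 was -1.15 ± 0.34 (edgeR, adjusted p = 0.012), a call that was lost without DM3 replicate 1 (adjusted p = 0.1).

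Among the ClC genes, Clcn1, whose channel steadies the membrane of adult fibres, stayed low. It was at 0.169 and 0.287 CPM in DM3, 0.339 and 0.0778 CPM in DM2 and 0.748 and 0.292 CPM in DM1 at day 7, against 0.558 and 0.511 CPM at day 0. Its DM3 libraries lay below day 0, with a log2 difference of -1.21 ± 0.68 that did not pass the test (edgeR, adjusted p = 0.15). Clcn5 was abundant in every library, at 309 and 321 CPM at day 0, and in DM3 at 948 and 983 CPM at day 2 and 547 and 634 CPM at day 7. DM2 held 406 and 528 CPM at day 2 and 442 and 437 CPM at day 7, and DM1 507 and 503 CPM at day 2 and 533 and 513 CPM at day 7. DM3 at day 2 stood above all other libraries, 3.06-fold over day 0 (log2 1.62 ± 0.11), 2.07-fold over DM2 and 1.91-fold over DM1 (edgeR, adjusted p = 2.7e-07, 7.8e-05 and 5.1e-05).

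Clcn7, whose exchanger works in lysosomes with its partner Ostm1, was at 52.5 and 52.2 CPM in DM3, 89.9 and 91.1 CPM in DM2 and 39.1 and 35.7 CPM in DM1 at day 7, against 41.9 and 39.1 CPM at day 0. DM2 stood above all other libraries, 2.23-fold over day 0 (log2 1.16 ± 0.09, edgeR, adjusted p = 4.6e-07). Ostm1 averaged 39.3 ± 1.17 CPM in DM3, 72.6 ± 5.38 CPM in DM2 and 29.1 ± 1.84 CPM in DM1 at day 7, against 37.7 ± 0.174 CPM at day 0 (SD, n = 2 each). Clcn3, of endosomes, was at 58.6 and 61.4 CPM in DM3 at day 7 against 100.2 and 102 CPM at day 0, and Clcn6, of late endosomes, at 17.2 and 17.7 CPM against 34.4 and 35.3 CPM. Both fell, by log2 changes of -0.75 ± 0.09 and -0.99 ± 0.10 (edgeR, adjusted p = 1.6e-05 and 4.4e-06).

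With the cocktail added to the same serum, DM3 against DM1, 11 channel genes were higher and 11 lower at day 2 (22.9% and 22.9%, all genes 17.6% and 19.4%). Together these 22 were 45.8% of the 48, beside 37.0% of all genes. With the same 3 libraries left out the count was 15. At day 7 it was 32 (66.7%, all genes 47.7%), 13 higher and 19 lower (27.1% and 39.6%, all genes 22.7% and 25.1%). The higher genes of largest fold include Kcnk13, Kcnn3 and Kcnj8, and the lower ones were led by Kcnk2, Kcna6, Scn7a, Kcnmb2 and Kcna4. At day 7 against day 2, the difference of DM3 from DM1 was called higher for 6 channel genes and lower for 16 (12.5% and 33.3%, all genes 16.3% and 18.7%). This test of change over time called 22 in all (45.8%, all genes 34.9%). That count was 14 without DM1 replicate 2 of day 2.

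**Figure D4:**
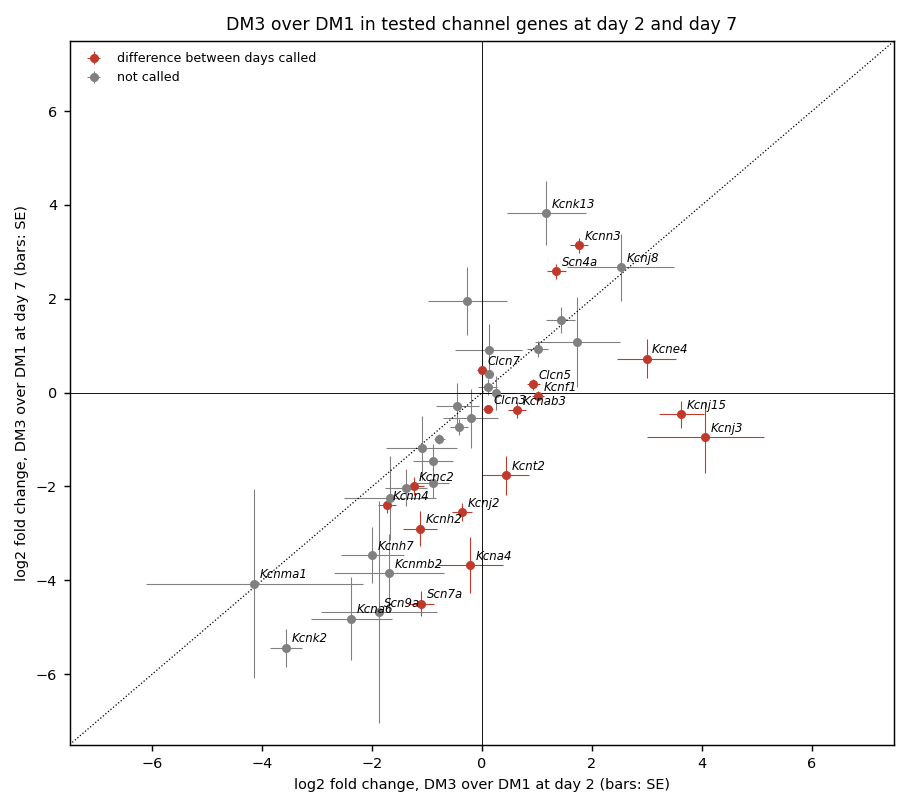
Log2 fold change of DM3 over DM1 at day 7 (y axis) against that at day 2 (x axis) for 42 of the 48 tested channel genes; bars are 1 SE, the dotted diagonal marks equal change, and red marks genes whose difference changed between the days. Kcnj15, Kcnj3 and Scn7a lie below the diagonal, and Kcnn3 and Scn4a above it.

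DM3 and DM2 share the cocktail and differ in the kind and the amount of serum. At day 2, 11 channel genes were called (22.9%, all genes 16.3%), 9 higher and 2 lower in DM3 (18.75% and 4.17%, all genes 9.98% and 6.31%). The count was 5 without DM2 replicate 1, 5 without DM3 replicate 2, and also 5 when those 3 libraries with few pseudogene counts were left out. At day 7 it was 29 (60.4%, all genes 52.7%), 15 higher and 14 lower (31.25% and 29.2%, all genes 27.5% and 25.2%). Scn4a and Kcnn3 were among the largest folds above DM2. Kcnma1 and Kcnk2 led those below it, with 0 and 2 counts in DM3 at day 7. A test of the difference of DM3 from DM2 over time called 19 genes (39.6%, all genes 39.8%). Of these, 8 were higher and 11 lower at day 7 than at day 2 (16.7% and 22.9%, all genes 20.0% and 19.8%).

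A list of 23 channel genes known from muscle fibres had 22 in the table and 13 that could be tested. In DM3 at day 7, 5 of the 13 were higher and 3 lower than at day 0 (28.9% and 30.1% of all genes), with a median log2 change of -0.48 beside 0.03 over all tested genes. DM2 had 5 higher and 4 lower (all genes 24.5% and 30.9%), with a median of 0.14 beside -0.03. DM1 had 6 higher and 3 lower (all genes 27.7% and 25.8%), with a median of 0.89 beside 0.06. Those higher in DM3 include Scn4a, Kcnn3 and Kcnh1, and those lower Kcnk2 and Kcnh2.

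Pumps and cotransporters keep the gradients that these channels use. Of 16 tested, 12 were higher and 1 lower than at day 0 in DM3 at day 7 (28.9% and 30.1% of all genes). In DM2 5 were higher and 5 lower (all genes 24.5% and 30.9%), and in DM1 8 were higher and 4 lower (all genes 27.7% and 25.8%). Slc12a2, which imports sodium, potassium and chloride, averaged 202 ± 1.96 CPM in DM3, 72.04 ± 13.9 CPM in DM2 and 65.7 ± 5.09 CPM in DM1, against 32.01 ± 1.86 CPM at day 0 (SD, n = 2 each).

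Of 17 tested genes on a list of other chloride channels and their partners, 3 were higher and 9 lower than at day 0 in DM3 at day 7 (28.9% and 30.1% of all genes). In DM2 6 were higher and 8 lower (all genes 24.5% and 30.9%), and in DM1 4 were higher and 10 lower (all genes 27.7% and 25.8%). Lrrc8c, a subunit of the volume-regulated anion channel, averaged 4.97 ± 1.11 CPM in DM3, 20.9 ± 1.24 CPM in DM2 and 25.1 ± 0.265 CPM in DM1, against 47.5 ± 0.221 CPM at day 0 (SD, n = 2 each). Of 16 tested partners and regulators of channels, 8 were higher and 2 lower in DM3, 5 higher and 5 lower in DM2, and 8 higher and 2 lower in DM1 (all genes as for the list before). Sntb1, a syntrophin of the dystrophin complex, averaged 78.1 ± 3.14 CPM in DM3, 15.1 ± 0.675 CPM in DM2 and 21.02 ± 3.88 CPM in DM1, against 9.86 ± 0.508 CPM at day 0.

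Markers of other cell types were checked beside these results. The 5 adipocyte markers summed to 0.719 to 1.19 CPM in DM3, 7.82 to 9.07 CPM in DM2 and 1.89 to 3.51 CPM in DM1 at day 7, against 0.375 to 0.523 CPM at day 0, and Lep was at 0 in all 14 libraries. Most of this sum was Fabp4, which averaged 0.934 CPM in DM3, 6.74 CPM in DM2 and 2.68 CPM in DM1 at day 7. Adipoq, Plin1 and Cidec each averaged 0.917 CPM or less in DM2 at day 7, and 0.0205 CPM or less in DM3 and DM1. Of the 4 neuron markers, Snap25 and Rbfox3 each had counts in 1 library, while Syn1 lay between 22.7 and 64.1 CPM. The 3 smooth muscle markers, which include Acta2, summed to 2028 to 2264 CPM in DM3, 646 to 663 CPM in DM2 and 285 to 361 CPM in DM1 at day 7, against 449 to 490.4 CPM at day 0. This sum was almost all Acta2. Cnn1 averaged 0.187 CPM in DM3, 0.266 CPM in DM2 and 0.777 CPM in DM1 at day 7, against 3.95 CPM at day 0, and Myh11 was at 0.507 CPM at most. Of the 3 leukocyte markers, Adgre1 was at 0 in all libraries. Csf1r and Ptprc had counts in some libraries, at 0.419 CPM at most. The 3 endothelial markers summed to 3.11 CPM at most. Of these, Kdr averaged 1.43 CPM in DM2 at day 7 and 0.146 CPM or less in every other group. The part of these markers in the channel results was not tested.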

How the data were processed

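Poly(A) RNA of C2C12 cells was read with a strand-specific, single-end protocol, per the labels' protocols. The authors deposited expected counts per gene, whose submitters' processing notes name STAR 2.5.1b, RSEM 1.2.31, build GRCm38.p5 and Gencode vM12. They were rounded to whole numbers. Genes were filtered with filterByExpr, scaled by TMM and fitted with edgeR 4.0.16 (under R 4.3.3, with limma 3.58.1) in 1 model of 7 groups (7 residual degrees of freedom) by the robust quasi-likelihood F test, with Benjamini-Hochberg adjustment over 15973 genes and a threshold of 0.05. The SE is the absolute log2 change over the root of F. A group with no count gives a bound against 3 counts per library, and one with 1 to 3 counts a ratio with an exact 95% interval; both cover counting error only. The procedure was also run on simulated data with a single spread for all genes and changes in well-counted genes only. That run does not show how well changes in genes with few counts are found. Alternatives included DESeq2 1.42.0, other scalings and filters, a replicate block and leaving out libraries. Coordinates are from Gencode on GRCm38.

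The members, gene lists and tests were chosen with earlier results of these data known. The rule for naming genes took Scn7a, tested genes of the muscle fibre list, up to 5 called genes per direction and comparison with the largest change, and the 8 highest genes. Not every gene that it took is given with its levels: Kcna6, Kcnmb2 and Kcnmb4, among others, are not. Clcn2, Hcn2, Kcnc2, Kcnk5, Kcnn1, Kcnt2 and Scn2a fall outside that rule and were named after their values were seen, as were the example genes of the other lists. Results for some genes are not reported here, while counts over the 48 tested genes include every gene.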

Additional observations from a re-analysis of the deposited data

Results flagged for a closer look

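The difference of DM3 from DM1 was not the same at both days for several channel genes, by a test of that change itself (edgeR's interaction term, adjusted over all tested genes). On the log2 scale, the difference at day 7 minus that at day 2 was 1.38 for Kcnn3 (adjusted p = 0.00062) and 1.24 for Scn4a (0.0016). It was -3.38 for Scn7a (adjusted p = 2.9e-05), -3.46 for Kcna4 (0.0083), -4.09 for Kcnj15 (0.00017) and -5.01 for Kcnj3 (0.013). The Kcnj3 value rests on 1 count in DM1 at day 2. It was -7.37 without DM1 replicate 1 of day 2 and -4.08 without replicate 2, where the call was lost (adjusted p = 0.057), and -4.10 without DM3 replicate 1 and -5.60 without replicate 2 of day 2. The Kcna4 value was -2.82 without DM3 replicate 1 and -4.67 without replicate 2 of day 7, and -4.05 without DM1 replicate 2 of day 2. The Kcnj15 value was -4.85 without DM1 replicate 1 of day 2.

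The same test of the difference of DM3 from DM2 gave 3.41 for Scn4a (adjusted p = 1.6e-06) and 2.81 for Scn7a (0.00062). It gave -1.84 for Kcnab2 (adjusted p = 0.014), -2.87 for Kcnj15 (0.00034), -4.40 for Kcnh2 (2.7e-05) and -4.98 for Kcnk2 (2.3e-05). For Scn7a the difference of DM3 from the other medium changed in opposite directions in the 2 tests. The second Scn7a value was 2.22 without DM2 replicate 1 and 3.79 without replicate 2 of day 7. The Kcnh2 value was -5.00 without DM3 replicate 1 of day 7. The Kcnab2 call was lost without DM3 replicate 1 of day 2 or of day 7 (adjusted p = 0.064 and 0.059). Both tests share the DM3 libraries.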

How the results depend on the processing

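Of 3338 alternative values for the 274 named results, 3069 kept the call, 268 lost it and 1 reversed: Clcn4 at day 7 over day 2 in DM2, at log2 0.24, was -0.019 with library totals in place of TMM. Leaving out 1 library accounted for 168 of the lost calls, and leaving out the 3 libraries of low pseudogene share for 31. The count of channel genes changed in DM1 at day 2 over day 0 (18) was 9 to 13 without 1 library, and that in DM1 at day 7 over day 0 (32) was 21 with at least 50 counts in a group. The count for DM3 against DM2 at day 2 (11) was 5 when only the groups compared were fitted, 5 without the 3 libraries, and 5 to 11 without 1 library. The change over time of DM3 against DM1 (22) was 14 to 21 without 1 library. The cause of these shifts was not tested, and the share of all genes called in these alternative fits is not given. Library totals lowered the median change of all genes by up to 0.26 (log2 -0.26, DM2 at day 7 over day 2). The labels do not say that replicate numbers pair the libraries. Over 21 pairs of groups, the correlation of same-numbered deviations was 0.518 for day 0 with DM1 at day 2, -0.63 for day 0 with DM3 at day 2 and -0.43 for DM1 with DM3 at day 2, the 3 groups that hold the libraries of low pseudogene share, and between -0.12 and 0.112 for the other 18. With the replicate block the counts over day 0 were 34, 32 and 32 for DM3, DM2 and DM1 at day 7 and 20, 24 and 14 at day 2, and 7 named calls were lost. With crossed numbers, chosen after seeing the data, DM3 at day 2 over day 0 had 20 and over DM1 22, and DM2 at day 7 over day 2 had 26. Genes near the floor of 3 counts carry the widest intervals. For 84 further pairs of a named result and an alternative there was no value, and these are outside the 3338. With at least 50 counts in a group, 213 of the 274 named results had a value. That alternative does not cover the named genes with fewer counts.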
